A study of Mus musculus with 24 samples.

Results

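Differentiation of control 3T3-L1 cells was described by comparing 3 RNA-seq libraries taken at day 7 with 3 taken at day 0. 3T3-L1 is an established mouse preadipocyte line that turns into fat cells on hormonal induction. The comparison covered every gene with enough counts for a test: 13356 of the 24346 genes in the count tables, each represented by 1 RefSeq transcript. Day 0 was control cells at confluence, before induction. Day 7 was control cells induced in 10% serum with a mix of 4 agents: isobutylmethylxanthine at 500 µM, rosiglitazone at 10 µM, dexamethasone at 1 µM and insulin at 10 µg/ml, with a change at day 3 to medium that held insulin and serum. Day, hormones, medium and differentiation thus differ together between both groups and cannot be told apart. The series also holds 6 libraries from cells carrying the LSD1 label at the same days, which entered the fit, and peak lists of LSD1 and Nrf1. The labels call the libraries of a group biological replicates and number them, without saying that a number ties a day 0 library to a day 7 library.

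Fat cell formation is driven by a chain of transcription factors. C/EBPβ and C/EBPδ act early, PPARγ and C/EBPα follow and switch on the genes of lipid storage, and factors such as GATA2, GATA3 and the Wnt ligands hold cells in the precursor state. Dexamethasone is a ligand of the glucocorticoid receptor, rosiglitazone a ligand of PPARγ, and isobutylmethylxanthine raises cyclic AMP by blocking phosphodiesterases. As cells fill with lipid they round up, take apart their contractile actin fibres and exchange a fibrillar matrix for a basement membrane.

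Levels are in CPM, the usual depth-scaled unit of read counts, and differences are log2 fold changes of day 7 against day 0 with their standard error (SE). A gene passed when its adjusted p was under 0.05 in edgeR's quasi-likelihood test. Of all tested genes 23.7% passed as higher at day 7 and 24.6% as lower, and 10.8% and 8.42% did so with a change of at least 2-fold. The libraries held 37032832 to 37565527 counts over all transcripts at day 0 and 27881281 to 31008490 at day 7. The correlation of log2 CPM between libraries was 0.989 to 0.992 within a day and 0.912 to 0.922 between days. All 11 tested adipocyte markers passed as higher and their summed level went from between 733 and 906 to between 11320 and 13032 CPM. Among the fibroblast markers 9 of 12 passed as lower and Pdgfra as higher. Of markers of other cell types, none of 4 tested macrophage markers passed as higher, 2 passed as lower (Lyz2 at −5.17, or −6.70 without library 1 of day 7, and Mrc1), Adgre1 was at 0 counts on both days, and the summed level was 17.1 to 23.4 CPM at day 0 and 13.8 to 16.2 at day 7. Of 4 tested endothelial markers 1 passed as lower, of 3 tested bone or cartilage markers all 3 did, and of 3 tested muscle markers Des passed as higher. The summed muscle level was 4.83 to 5.99 CPM at day 0 and 12.9 to 16 at day 7, with Myog, Myod1, Myf5 and Myh3 at 0 counts on both days. Library 3 of day 0 stood above the other day 0 libraries for several adipocyte genes, with Plin1 at 0.516 CPM against 0.118 and 0.0403, and values that move with it are given beside the genes concerned. In bulk RNA, fewer cells of a type and less RNA per cell cannot be told apart.

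Genes were sorted into 85 families under 6 roles, which held 3211 genes in the tables and 1824 tested ones. Roles differed in the balance of directions. Secreted factors had 65 higher (19.8%) and 137 lower (41.6%) of 329 tested, receptors 75 higher (25.9%) and 107 lower (36.9%) of 290, and cytoskeleton and adhesion genes 34 higher (19.1%) and 89 lower of 178. The lower share of the last role was 51.6% of 122 genes without the clustered protocadherins, whose transcripts share counted exons. Transcription factors (81 higher and 109 lower of 380) and enzymes and signalling proteins (99 and 107 of 370) lay closer to the share among all genes. Only transporters and channels had more higher (73) than lower (60) genes, of 277 tested. The median log2 fold change was −0.47 for secreted factors, −0.22 for receptors and −0.68 for cytoskeleton and adhesion genes, against −0.006 over all tested genes.

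**Figure D1:**
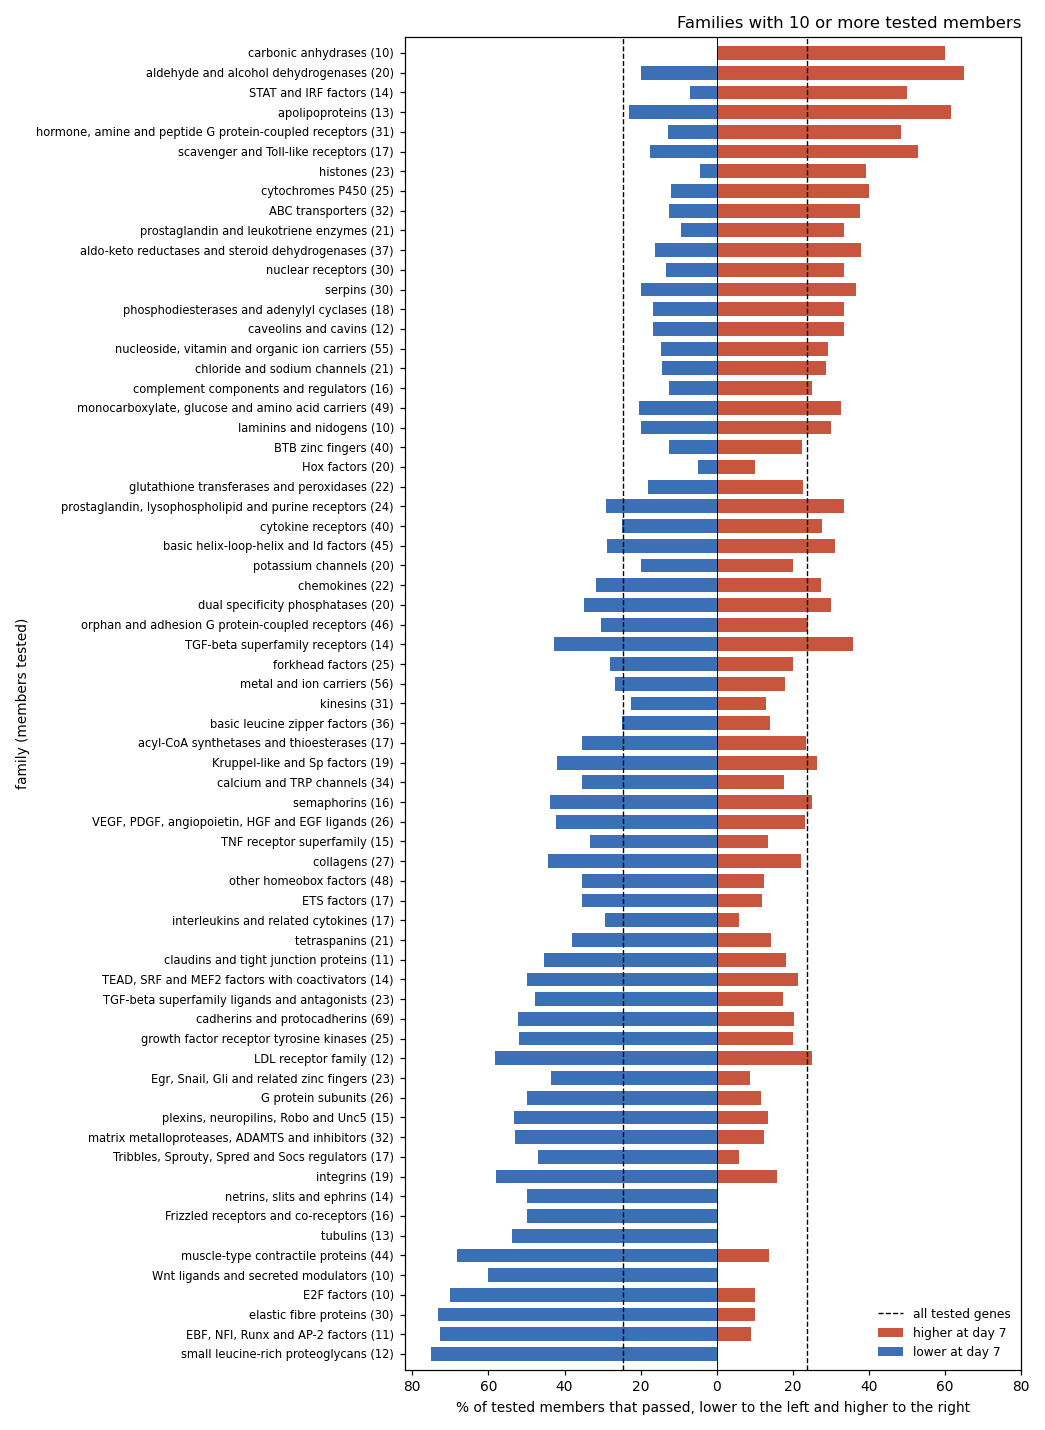
Share of tested members of each family that passed as higher (red, to the right, %) or lower (blue, to the left, %) at day 7, for 67 families with 10 or more tested members, whose number is in brackets. The dashed lines stand at 23.7% and 24.6%, the shares among all tested genes; carbonic anhydrases have no lower member, and small leucine-rich proteoglycans no higher one.

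Among transcription factors, the one with the largest rise was Zbtb16 (PLZF, a BTB zinc finger repressor, chr9:48651797-48836225, build GRCm38). Zbtb16 stood at 0 CPM in each of the 3 libraries at day 0 and at 63, 43.6 and 55.9 CPM at day 7. With a floor of 3 counts over the day 0 group it was at least 1368-fold higher at day 7 (adjusted p = 2.96e-09, edgeR). Hif3a, a member of the hypoxia-inducible factor family that lacks a strong activation domain, stood at 0, 0.0806 and 0.0793 CPM at day 0 and at 29.3, 25.7 and 20.6 CPM at day 7. Its log2 fold change was 8.75 (SE 0.39, adjusted p = 3.14e-08, edgeR), and the 2 groups did not overlap, as was the case with day 7 above for 33.8% and with day 7 below for 35.4% of all tested genes. The Kruppel-like factor Klf15, known as an activator of amino acid and glucose handling, stood at 0, 0.0806 and 0.0793 CPM at day 0 and at 9.53, 7.55 and 7.16 CPM at day 7, a log2 fold change of 7.11 (SE 0.41, adjusted p = 3.93e-08, edgeR). These 3 genes were near or at 0 before induction, and the days did not overlap for any of them.

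Factors of the adipogenic chain were present before induction. Of the 6 tested C/EBP factors 4 passed as higher and none as lower. Cebpa stood at 21.9, 22.7 and 23.9 CPM at day 0 and at 108, 89.7 and 92.4 CPM at day 7, a log2 fold change of 2.08 (SE 0.16, adjusted p = 6.4e-07, edgeR). Cebpd, the early-acting δ member, stood at 60.7, 63.2 and 68 CPM at day 0 and at 287, 272 and 263 CPM at day 7 and rose by 2.10 (SE 0.18). Cebpb stood at 40.7, 47.9 and 37.6 CPM at day 0 and at 105, 168 and 132 CPM at day 7 and rose by 1.68 (SE 0.22), with no overlap between days. Pparg stood at 37.3, 39.8 and 38.9 CPM at day 0 and at 139, 133 and 127 CPM at day 7, a log2 fold change of 1.78 (SE 0.14, adjusted p = 4.65e-07, edgeR), and its partner Rxra rose by 1.15 (SE 0.11).

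Nuclear receptors had 10 higher and 4 lower members of 30 tested, with a median of −0.02. Nr1h3, which encodes the oxysterol receptor LXRα, stood at 1.73, 3.62 and 2.34 CPM at day 0 and at 53.1, 46.9 and 49.3 CPM at day 7, a log2 fold change of 4.28 (SE 0.24, adjusted p = 3.0e-08, edgeR). Lower members included Nr3c2, the mineralocorticoid receptor, at −1.01 (SE 0.21), and Nr2f2 at −0.95 (SE 0.17). The glucocorticoid receptor itself, Nr3c1, stood at 172, 169 and 180.1 CPM at day 0 and at 175, 159 and 169 CPM at day 7, and its difference of −0.05 (SE 0.17, adjusted p = 0.834, edgeR) did not pass. With a trend on GC content removed it passed as lower, at −0.37 (adjusted p = 0.00787, edgeR). Over the 13079 tested genes with a known GC content, log2 fold change and transcript GC content had a Spearman correlation of −0.31.

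Gata2 and Gata3, known as brakes on fat cell formation, were lower. Gata2 stood at 18.4, 15.9 and 17.3 CPM at day 0 and at 1.74, 1.95 and 2.62 CPM at day 7, a log2 fold change of −3.03 (SE 0.18, adjusted p = 4.85e-08, edgeR). Gata3 fell from 8.25 ± 0.517 to 3.31 ± 0.626 CPM (SD, n = 3). Among Kruppel-like factors, Klf4 was lower at −1.34 (SE 0.30), while Klf9 was higher at 1.58 (SE 0.14) and Klf5 at 1.04 (SE 0.29). Klf5 no longer passed without library 2 of day 7, at 0.85 (adjusted p = 0.0516, edgeR). Of the EBF, NFI, Runx and AP-2 factors 8 of 11 passed as lower and Nfia alone as higher, at 0.78 (SE 0.14). Runx2, the factor of bone formation, stood at 89.1, 70.4 and 83.1 CPM at day 0 and at 21.7, 24.1 and 19 CPM at day 7, a log2 fold change of −1.90 (SE 0.17, adjusted p = 1.58e-06, edgeR). Ebf1, which is known to favour fat cell formation, was lower by a small step of −0.48 (SE 0.15), which did not pass without library 3 of day 7 (−0.32, adjusted p = 0.0771, edgeR) or without library 3 of day 0 (−0.44, adjusted p = 0.0663, edgeR). Ebf2 (−0.16) and Zfp423 (0.13), other factors of the adipocyte lineage, did not pass, and Zfp423 passed with the GC trend removed (0.34, adjusted p = 0.0234, edgeR).

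The E2F factors, which drive S phase genes, had 7 lower and 1 higher of 10 tested, led by E2f7 at −2.12 (SE 0.41). With 1 control library left out 5 or 6 were lower. The higher one, E2f5 at 0.52 (SE 0.19), did not pass in 5 of these 6 fits (adjusted p up to 0.124, edgeR), with a replicate block or with a GC trend removed (adjusted p = 0.0529 and 0.0747, edgeR). Of 17 tested ETS factors 6 were lower, and the 3 members of the PEA3 group, which respond to fibroblast growth factor signalling, were the lowest. Etv4 stood at 47.6, 44.3 and 46.9 CPM at day 0 and at 4.10, 8.25 and 4.00 CPM at day 7. Etv5 was at −2.67 (SE 0.41) and Etv1 at −1.80 (SE 0.25). Among Sprouty genes, feedback inhibitors of the same kinase cascade, Spry2 at −1.92 (SE 0.11) and Spry1 at −1.48 (SE 0.11) were lower, but Spry4 was higher at 0.95 (SE 0.17). Of 17 tested Tribbles, Sprouty, Spred and Socs genes 8 were lower and 1 higher. Dual specificity phosphatases, some of which switch off such kinases, had 7 lower (35%) and 6 higher (30%) of 20, against 24.6% and 23.7% of all tested genes. Only 3 were higher without library 2 of day 0 or library 1 of day 7. Dusp6 at −1.91 (SE 0.18) and Dusp5 at −1.89 (SE 0.28) were lower, and Dusp22 was higher at 1.23 (SE 0.13). Of 20 tested Hox factors, which mark body position, 2 passed as higher and 1 as lower. None was higher without library 2 or 3 of either day and 1 without library 1 of day 7, and the lower one, Hoxd9, did not pass with a GC trend removed (−0.27, adjusted p = 0.0841, edgeR).

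**Figure D2:**
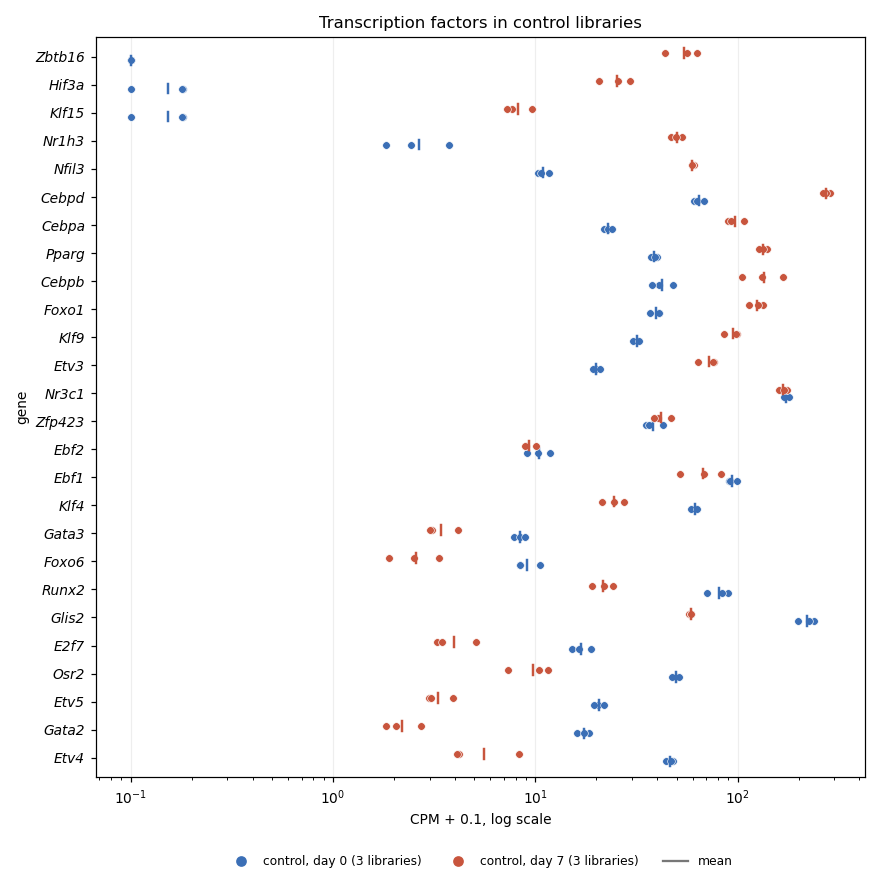
Level of 26 transcription factors in each of the 6 control libraries (horizontal axis, CPM + 0.1 on a log scale; blue day 0, red day 7; each point is a library and each tick the mean of 3). Zbtb16, Hif3a and Klf15 lie at the left edge at day 0 and apart from their day 7 points, and the points of Nr3c1, Zfp423 and Ebf2 overlap between days.

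Receptors for hormones, amines and peptides moved towards higher levels. Of the 109 genes of this G protein-coupled family on file only 31 had enough counts, and 15 of these passed as higher, each by at least 2-fold, and 4 as lower (2 without library 3 of day 0 or library 3 of day 7). A gene that is silent in control cells before induction enters the test only through its level at day 7 or in labelled cells. The count of higher genes thus describes which receptors appeared. Receptors that raise cyclic AMP were among them. Mc2r, the receptor for adrenocorticotropic hormone, stood at 0.628, 0.201 and 0.516 CPM at day 0 and at 12.8, 13 and 10.7 CPM at day 7, a log2 fold change of 4.74 (SE 0.33, adjusted p = 2.16e-07, edgeR). Mrap, the accessory protein that Mc2r needs to reach the cell surface, stood at 0, 0.121 and 0.238 CPM at day 0 and at 53.7, 50.6 and 42.4 CPM at day 7. Its log2 fold change was 8.62 (SE 0.31), and 9.55 without library 3 of day 0. Mc5r, another melanocortin receptor, stood at 0.314, 0.161 and 0.397 CPM at day 0 and at 19, 13.3 and 20.5 CPM at day 7.

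Adrb3, the β3-adrenergic receptor of fat cells, had 2 counts at day 0, both in library 3, and stood at 4.14, 3.47 and 3.50 CPM at day 7. The fitted change was 6.86 (117-fold), or 9.43 without that library. From its counts alone, the 95% counting interval of the ratio between days was 38.3 to 1161. Vipr1, a receptor for vasoactive intestinal peptide, rose by 5.73 (SE 0.42) to 15 CPM, and by 6.90 without library 1 of day 0. The incretin receptor Gipr rose by 4.31 (SE 0.69) to 1.68 CPM.

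Some receptors known to lower cyclic AMP were also among the higher genes. Hcar2, the receptor for nicotinic acid and ketone bodies, stood at 0 CPM in each of the 3 libraries at day 0 and at 7.71, 6.81 and 7.62 CPM at day 7 and was at least 186-fold higher at day 7. Hcar1, the lactate receptor, stood at 0, 0.161 and 0 CPM at day 0 and at 6.55, 5.42 and 4.41 CPM at day 7, a log2 fold change of 6.55 (SE 0.60, adjusted p = 8.38e-06, edgeR), and of 9.99 without library 2 of day 0. The short-chain fatty acid receptor Ffar2 was at 0 counts at day 0 and at least 42.5-fold higher at day 7. Adora1, the adenosine receptor that restrains lipolysis, had 2 counts at day 0 and stood at 3.39, 3.80 and 5.62 CPM at day 7. Its fitted change was 7.07 (134-fold), or 9.63 without library 2 of day 0. From its counts alone, the 95% counting interval of the ratio between days was 44.6 to 1348. Of the 4 hormone, amine and peptide receptors that fell, Agtr2, a receptor for angiotensin, stood at 19.6, 18.6 and 16.7 CPM at day 0 and at 1.96, 1.53 and 1.75 CPM at day 7, and the chemokine scavenger Ackr3 fell from 36.3 ± 2.77 to 5.56 ± 1.52 CPM (SD, n = 3).

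**Figure D3:**
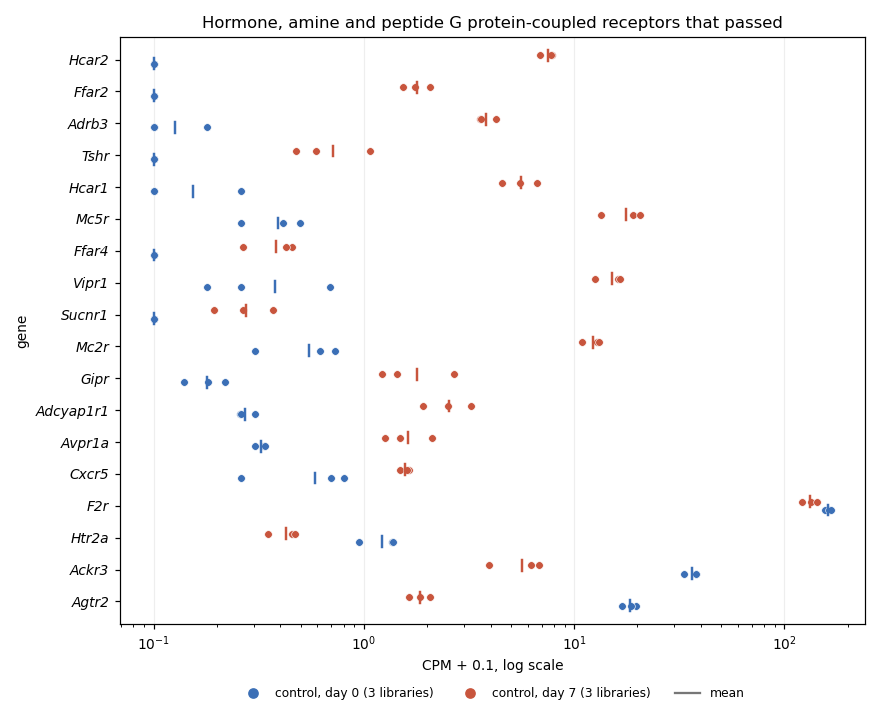
Level of 18 hormone, amine and peptide receptors that passed, in each control library (horizontal axis, CPM + 0.1 on a log scale; blue day 0, red day 7; points are libraries, ticks are means of 3), ordered by fold change. The 14 plotted receptors that rose had day 0 means from 0 for Hcar2, Ffar2, Ffar4, Sucnr1 and Tshr to 0.488 CPM for Cxcr5, and in none of the 18 do the days overlap.

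Cxcr5, a chemokine receptor, was the weakest of the 15 that rose, at 1.58 (SE 0.57). It no longer passed in 5 of the 6 fits that left out 1 control library, where its adjusted p was 0.0645 to 0.121 in edgeR.

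Receptor families of growth and guidance cues differed in their balance of directions. All 7 tested Eph receptors passed as lower, with a median of −1.70, and their ephrin ligands moved the same way where they passed, as Efnb2 did at −2.74 (SE 0.15). Epha4 stood at 14, 13.9 and 14 CPM at day 0 and at 1.69, 1.30 and 2.12 CPM at day 7, a log2 fold change of −3.03 (SE 0.34, adjusted p = 1.39e-05, edgeR). Plexins, neuropilins and related guidance receptors had 8 lower and 2 higher of 15 tested (1 higher in each of the 6 fits that left out 1 control library), with Unc5c at −1.80 (SE 0.18) and Plxnd1 at 0.86 (SE 0.11). Frizzled receptors and co-receptors, through which Wnt ligands act, had 8 lower and none higher of 16, led by Fzd2 at −1.82 (SE 0.22). Receptors of the TGF-β superfamily had 6 lower (42.9%) and 5 higher (35.7%) of 14, against 24.6% and 23.7% of all tested genes. Only 3 were higher without library 2 of day 0 or library 1 of day 7, or with a GC trend removed. Of 25 growth factor receptor tyrosine kinases 13 were lower and 5 higher. Pdgfrb, the platelet-derived growth factor receptor of mesenchymal cells, stood at 850.5, 786 and 863 CPM at day 0 and at 328, 305 and 299 CPM at day 7, whereas Fgfr2 stood at 64.3, 61.7 and 63.6 CPM at day 0 and at 257, 224 and 232 CPM at day 7. The insulin receptor Insr rose by 0.98 (SE 0.17).

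Single receptors with large changes came from several families. Prlr, the prolactin receptor, rose from 1.88 ± 0.305 to 19.4 ± 3.31 CPM (SD, n = 3), a log2 fold change of 3.36 (SE 0.21, adjusted p = 8.63e-08, edgeR). Sort1 (sortilin, a sorting receptor of the glucose transporter vesicle) stood at 15.5, 15.1 and 17.7 CPM at day 0 and at 174, 150.2 and 166 CPM at day 7, while its relative Sorcs2 stood at 107, 110.2 and 111 CPM at day 0 and at 6.46, 4.54 and 6.29 CPM at day 7. Il1rl1, the receptor for interleukin 33, fell from 28.6 ± 0.196 to 2.19 ± 0.761 CPM. The orphan receptor Gpr39, which senses zinc, fell from 17.6 ± 1.10 to 0.853 ± 0.419 CPM. Dlk1, a surface protein that keeps preadipocytes undifferentiated, stood at 9335, 10663 and 9959.7 CPM at day 0 and at 1115, 1239.9 and 969 CPM at day 7, a log2 fold change of −3.17 (SE 0.27, adjusted p = 1.24e-06, edgeR). The days did not overlap.

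Growth and guidance factors were among the secreted genes that fell most. Nrg1, a neuregulin ligand of ErbB receptors (chr8:31807452-32891609), stood at 86.9, 79.9 and 82.9 CPM at day 0 and at 4.90, 5.00 and 4.58 CPM at day 7, a log2 fold change of −4.11 (SE 0.16, adjusted p = 1.43e-09, edgeR). Ptn (pleiotrophin), a heparin-binding growth factor, fell from 3902 ± 439 to 419 ± 29.1 CPM (SD, n = 3). Igf1 stood at 107, 107 and 123 CPM at day 0 and at 16.2, 15 and 15.8 CPM at day 7 and Igf2 fell from 77 ± 1.95 to 8.73 ± 0.764 CPM, so both insulin-like growth factors were lower while Insr was higher. Of 23 tested ligands and antagonists of the TGF-β superfamily 11 were lower, among them Inhba (activin A) at −2.54 (SE 0.32), and 4 were higher. The higher ones included Gdf5, Nog and Gdf10, and Gdf10 stood at 1.37, 1.61 and 2.26 CPM at day 0 and at 23.4, 23.4 and 19.1 CPM at day 7, a log2 fold change of 3.65 (SE 0.23, adjusted p = 7.9e-08, edgeR). Kitl rose by 1.16 (SE 0.24), and Vegfa, the endothelial growth factor, by 1.12 (SE 0.33). Vegfa did not pass without library 2 of day 0, at 1.03 (adjusted p = 0.0520, edgeR).

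Wnt ligands and their secreted modulators had 6 lower and no higher members of 10 tested. Sfrp2, which binds Wnt ligands, stood at 185, 201 and 197 CPM at day 0 and at 47.6, 47.9 and 38.7 CPM at day 7, a log2 fold change of −2.12 (SE 0.33, adjusted p = 0.000198, edgeR). Wnt5a fell from 43.9 ± 1.90 to 21.9 ± 0.583 CPM (SD, n = 3). Wnt10b, known as a brake on fat cell formation, was at 0.0463 to 0.550 CPM in the 6 libraries, and its difference of −0.24 (SE 0.69, adjusted p = 0.800, edgeR) did not pass. All 5 tested CCN proteins, matricellular products of cells under tension, passed as lower, with a median of −1.47. With 1 control library left out 4 or 5 did. Ccn1 stood at 148, 125 and 115 CPM at day 0 and at 28.1, 35 and 30.2 CPM at day 7, a log2 fold change of −2.06 (SE 0.15, adjusted p = 2.49e-07, edgeR).

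Semaphorins had 4 higher (25.0%) and 7 lower (43.8%) of 16, against 23.7% and 24.6% of all tested genes. Sema3g (chr14:31217873-31230352) stood at 0.432, 0.282 and 0.278 CPM at day 0 and at 18.3, 15.8 and 24.7 CPM at day 7, a log2 fold change of 5.86 (SE 0.25, adjusted p = 2.96e-09, edgeR). Sema7a (chr9:57939596-57962865), a membrane-anchored semaphorin, stood at 22.7, 20.7 and 25.5 CPM at day 0 and at 1.16, 0.463 and 1.29 CPM at day 7, a log2 fold change of −4.55 (SE 0.50, adjusted p = 1.25e-05, edgeR). The guidance factors Sema3a and Sema3f were lower at −2.88 (SE 0.29) and −2.94 (SE 0.20), and Slit2, a repellent of axons, at −2.59 (SE 0.22). Netrins, slits and ephrins had 7 lower and no higher of 14.

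Of 13 tested apolipoproteins 8 were higher, each by at least 2-fold, and 3 were lower. Apoe rose from 7.08 ± 1.40 to 16.1 ± 0.391 CPM (SD, n = 3), Apoc1 from 1.48 ± 0.606 to 12.6 ± 1.91 CPM, and Apod, a lipocalin of fibroblasts, fell from 305 ± 50.3 to 88.7 ± 25.1 CPM. Serpins had 11 higher and 6 lower of 30, and 9 of the 11 were Serpina3 genes of a cluster on chromosome 12. Without that cluster 2 serpins were higher and 6 lower of 21. Serpina3n stood at 0.589, 1.13 and 0.952 CPM at day 0 and at 118, 115 and 113 CPM at day 7, a log2 fold change of 7.01 (SE 0.25, adjusted p = 8.91e-10, edgeR). These 9 genes are near-identical copies, so reads can be split or shared among them and single values are uncertain. Itih4, an inter-α-inhibitor chain made by liver, stood at 0.157, 0.322 and 0.159 CPM at day 0 and at 96.6, 80.0 and 83.8 CPM at day 7. Chemokines had 6 higher (27.3%) and 7 lower (31.8%) of 22, near the 23.7% and 24.6% among all tested genes. With 1 control library left out 4 or 5 were higher and 5 or 6 lower. Ccl11 (eotaxin) fell from 11 ± 1.22 to 0.869 ± 0.0729 CPM, and Cxcl10 rose from 1.12 ± 0.324 to 10.0 ± 1.53 CPM.

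Matrix genes leaned to lower levels, and single collagens and proteases rose. Of 30 tested elastic fibre and related proteins 22 were lower and 3 higher, with a median of −1.30. Mfap4, a microfibril protein, stood at 21.4, 22.3 and 18.5 CPM at day 0 and at 0.267, 0.139 and 0.458 CPM at day 7, a log2 fold change of −6.12 (SE 0.33, adjusted p = 1.27e-07, edgeR). Eln (elastin) fell from 47.5 ± 1.98 to 4.03 ± 0.601 CPM (SD, n = 3) and Fbn1 (fibrillin 1) from 748 ± 67 to 131 ± 5.59 CPM. Small leucine-rich proteoglycans, which organise collagen fibrils, had 9 lower and none higher of 12, among them Fmod at −3.62 (SE 0.48), Ogn at −3.44 (SE 0.21) and Dcn at −1.89 (SE 0.12). With 1 control library left out 6 to 8 of these proteoglycans were lower. Collagens had 12 lower and 6 higher of 27. The higher ones were Col20a1, Col6a3 (1.11), Col4a1 (0.74) and Col4a2 (0.28) of the basement membrane and its relatives Col15a1 (4.18) and Col18a1 (2.50). Col4a2 no longer passed in 5 of the 6 fits that left out 1 control library (adjusted p = 0.0717 to 0.123, edgeR) or with RLE scaling (adjusted p = 0.0637, edgeR). Among matrix proteases and inhibitors 17 of 32 were lower and 4 higher, and of the higher ones Adamts15 (chr9:30899155-30922452), a proteoglycan-cleaving protease, stood at 2.71, 3.46 and 2.54 CPM at day 0 and at 82.5, 69.9 and 87 CPM at day 7, a log2 fold change of 4.78 (SE 0.25, adjusted p = 1.87e-08, edgeR).

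**Figure D4:**
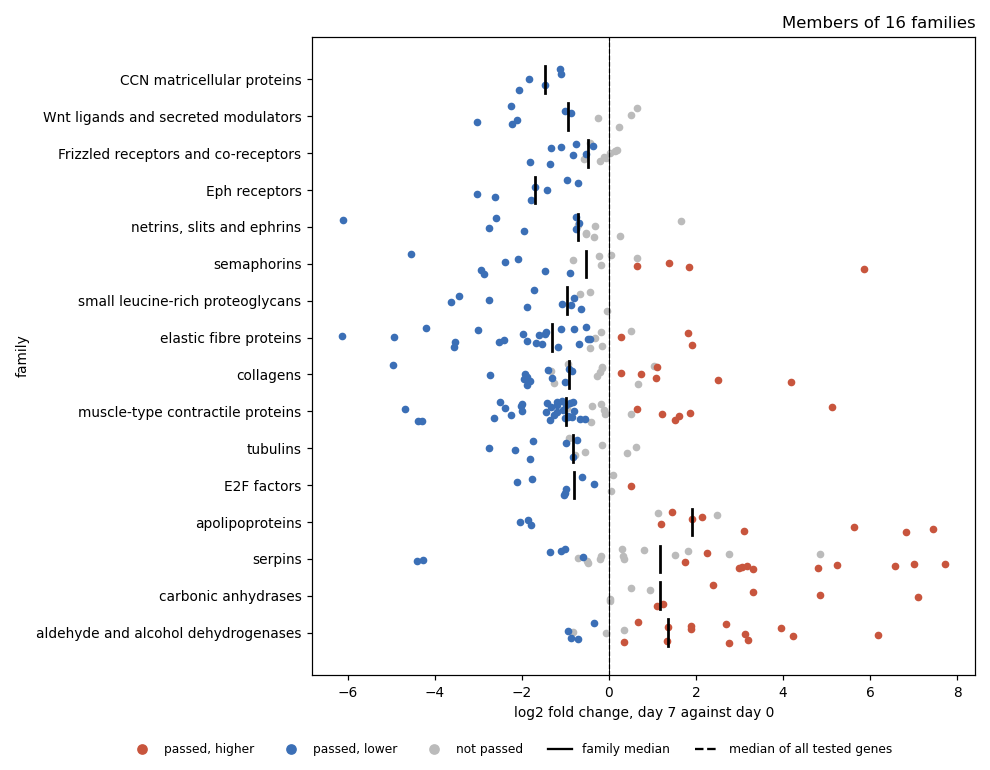
Log2 fold change of each tested member of 16 families, day 7 against day 0 (red passed and higher, blue passed and lower, grey not passed); the solid tick is the median of the family and the dashed line that of all tested genes. The members of the CCN and Eph families all lie below 0, and those of the carbonic anhydrases that passed all lie above it.

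Contractile and cytoskeletal genes fell in large number. Of 44 tested contractile proteins of muscle type 30 passed as lower and 6 as higher, with a median of −0.98. Myl9, a light chain of smooth muscle myosin, stood at 29, 35.2 and 27 CPM at day 0 and at 0.891, 1.53 and 1.12 CPM at day 7, a log2 fold change of −4.68 (SE 0.32, adjusted p = 1.8e-07, edgeR). Tpm1 (tropomyosin 1) stood at 921, 1025 and 935 CPM at day 0 and at 156, 181 and 168 CPM at day 7, and Cnn2 (calponin 2) stood at 591, 685 and 618 CPM at day 0 and at 100.5, 93.5 and 109 CPM at day 7. Actg2 fell from 20.6 ± 3.53 to 1.05 ± 0.276 CPM (SD, n = 3), while Des (desmin) rose from 4.40 ± 0.559 to 13.4 ± 1.38 CPM and Lmod1 from 4.28 ± 0.341 to 9.93 ± 1.61 CPM. Of 14 tested TEAD, SRF and MEF2 factors and coactivators, some of which are known to drive such genes, 7 were lower and 3 higher. Lower ones were Srf at −1.54 (SE 0.10), its coactivator Mrtfa at −1.01 (SE 0.15), Vgll3, a partner of TEAD factors, at −1.64 (SE 0.15), and Tead2 at −1.20 (SE 0.21). Mef2b, at a mean of 0.265 CPM at day 0, was higher at 3.57 (SE 0.36) and Tead4 at 0.77 (SE 0.17). Ankrd1, a stretch-responsive gene, stood at 17.4, 16.6 and 16.1 CPM at day 0 and at 1.02, 1.44 and 0.874 CPM at day 7, a log2 fold change of −3.91 (SE 0.38, adjusted p = 4.19e-06, edgeR).

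The tubulin gene Tuba1a was lower at −1.80 (SE 0.28). Integrins had 11 lower and 3 higher of 19, and 7 lower without library 2 or 3 of day 0 or library 1 of day 7. In cadherins outside the protocadherin clusters 10 were lower and none higher of 13. Pcdh18 stood at 156, 142 and 146 CPM at day 0 and at 21.1, 19 and 18.1 CPM at day 7 and Cdh26 stood at 56.3, 58.5 and 54.5 CPM at day 0 and at 2.05, 2.22 and 2.71 CPM at day 7. The 22 transcripts of the protocadherin γ cluster had log2 fold changes between −1.30 and −1.26. Their counted exons are shared, so they are given as 1 uncertain value. Caveolins and cavins form the membrane pits of fat cells. Of 12 tested genes of this family 4 were higher (33.3%) and 2 lower (16.7%), against 23.7% and 24.6% of all tested genes. The family median was 0.27. Of the higher ones, Cav1 stood at 816, 858 and 839 CPM at day 0 and at 1851, 1687 and 1726 CPM at day 7. Cav2 stood at 47.3, 54.1 and 51.2 CPM at day 0 and at 199.99, 165 and 219.5 CPM at day 7, while Ehd1 was lower at −0.75 (SE 0.18).

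Promoters of leading genes from both directions were read for letters that match the factors above. The windows are those of RefSeq (GRCm38.p6); 250 bases before the start site are printed 5′ to 3′ in the direction of the gene. Capitals mark matches on either strand to TTGCNNAA, the core of a C/EBP site, to GGAATG, the TEAD site, and to the CArG box of serum response factor. Pparg (3rd of 3 windows, chr6:115421816-115422065, plus strand), Plin1 (chr7:79732777-79733026, minus strand) and Saa3 (chr7:46715677-46715926, minus strand) stand for genes that rose, and Myl9 (chr2:156775214-156775463, plus strand), Cnn2 (chr10:79988350-79988599, plus strand) and Ankrd1 (chr19:36119845-36120094, minus strand) for genes that fell; they were chosen after their values and letters were seen.
Pparg: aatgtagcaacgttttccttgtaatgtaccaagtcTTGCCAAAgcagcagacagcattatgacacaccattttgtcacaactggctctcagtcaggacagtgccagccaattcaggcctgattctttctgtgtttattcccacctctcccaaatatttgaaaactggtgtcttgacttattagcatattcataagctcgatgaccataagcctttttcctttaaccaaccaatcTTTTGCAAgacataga
Plin1: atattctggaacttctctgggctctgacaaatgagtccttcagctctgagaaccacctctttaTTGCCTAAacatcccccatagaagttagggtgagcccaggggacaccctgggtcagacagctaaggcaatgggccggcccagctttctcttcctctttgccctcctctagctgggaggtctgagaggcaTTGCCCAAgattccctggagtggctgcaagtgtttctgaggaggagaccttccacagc
Saa3: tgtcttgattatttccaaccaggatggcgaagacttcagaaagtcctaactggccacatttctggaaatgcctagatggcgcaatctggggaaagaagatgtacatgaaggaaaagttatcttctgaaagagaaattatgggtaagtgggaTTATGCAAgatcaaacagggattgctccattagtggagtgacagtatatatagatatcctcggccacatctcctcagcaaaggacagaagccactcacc
Myl9: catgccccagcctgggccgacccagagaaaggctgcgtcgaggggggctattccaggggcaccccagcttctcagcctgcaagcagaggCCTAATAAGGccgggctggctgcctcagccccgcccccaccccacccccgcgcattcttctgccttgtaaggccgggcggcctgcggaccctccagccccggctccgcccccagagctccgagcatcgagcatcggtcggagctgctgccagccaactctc
Cnn2: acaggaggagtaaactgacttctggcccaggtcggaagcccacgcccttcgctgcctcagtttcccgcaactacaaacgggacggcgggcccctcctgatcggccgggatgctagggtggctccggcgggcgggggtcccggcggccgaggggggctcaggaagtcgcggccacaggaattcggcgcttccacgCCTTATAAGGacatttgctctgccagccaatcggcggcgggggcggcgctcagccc
Ankrd1: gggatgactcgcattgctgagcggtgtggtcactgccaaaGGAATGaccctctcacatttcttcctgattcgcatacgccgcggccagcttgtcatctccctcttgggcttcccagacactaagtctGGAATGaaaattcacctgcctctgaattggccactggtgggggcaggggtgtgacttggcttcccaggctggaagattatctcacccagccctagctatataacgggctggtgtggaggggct

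In these windows the C/EBP letters began 215 and 16 bases before the start of Pparg, 187 and 58 before that of Plin1 and 99 before that of Saa3. The CArG box began 161 bases before the start of Myl9 and 56 before that of Cnn2, and the TEAD letters 210 and 123 before that of Ankrd1. A match is a run of letters and not a measured binding site. Over 300-base windows, which add 50 bases after the start, the C/EBP letters stood in 14.9% of 1108 genes that rose by at least 2-fold, in 9.25% of 811 that fell by at least 2-fold and in 10.1% of 10365 tested genes with a window. Among genes that changed by at least 8-fold the share was 19.5% of the 220 that rose and 12.0% of the 92 that fell. The TEAD letters stood in 19.7% of genes that fell by at least 2-fold and 15.3% of those that rose, against 14.5% of all tested genes, and in 25.0% and 18.6% of those that fell and rose by at least 8-fold. The CArG box stood in 2.34% (19 genes) of those that fell and 1.35% (15 genes) of those that rose by at least 2-fold, and in 1.56% of all tested. At 8-fold it stood in 5 of the 92 genes that fell and 0 of the 220 that rose. In all 32851 windows of the table the shares were 10.8% for C/EBP, 14.7% for TEAD and 1.63% for the CArG box. Promoters at both extremes held fewer CpG pairs, with a median of 6 per window in genes that rose and 7 in genes that fell by at least 8-fold, against 20 over all tested genes, and a TATA box (TATAAA) stood in 18.6% and 20.7% of them against 8.88%. In all, 10 motifs were read. For the others, shares follow for genes that rose by at least 2-fold, that fell by at least 2-fold and all tested. The PPAR:RXR repeat stood in 0.361%, 0.247% and 0.270%, and glucocorticoid receptor letters in 6.86%, 5.92% and 5.09%. AP-1 letters stood in 10.1%, 9.00% and 6.52%, and E2F letters in 6.59%, 8.51% and 9.65%. Nrf1 letters stood in 10.7%, 8.51% and 14.7%, and the interferon-stimulated element in 5.51%, 4.19% and 3.67%. These are shares of genes, given without a test.

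Channels and carriers moved in both directions. Kcnk3 (TASK-1, a potassium leak channel, chr5:30588170-30625270) stood at 2.71, 2.22 and 3.01 CPM at day 0 and at 58.8, 52.1 and 59.9 CPM at day 7, a log2 fold change of 4.42 (SE 0.28, adjusted p = 7.9e-08, edgeR). Aqp7, the glycerol channel of fat cells, stood at 0, 0.0806 and 0.238 CPM at day 0 and at 12.9, 11.9 and 11.4 CPM at day 7, with a log2 fold change of 6.76 (SE 0.38) that was 8.06 without library 3 of day 0. Aqp1, a water channel, fell from 107 ± 9.78 to 16.9 ± 2.69 CPM (SD, n = 3). ABC transporters had 12 higher and 4 lower of 32, and the sterol exporters Abca1 and Abcg1, which LXR receptors are known to control, rose by 2.31 (SE 0.14) and 3.47 (SE 0.36) beside Nr1h3. Abca1 stood at 39.1, 31 and 37.2 CPM at day 0 and at 184, 162 and 187 CPM at day 7. The bicarbonate carrier Slc4a4 stood at 7.97, 6.89 and 6.43 CPM at day 0 and at 47.5, 40.5 and 45.4 CPM at day 7, and the biotin and pantothenate carrier Slc5a6 rose from 8.70 ± 0.569 to 61.2 ± 5.46 CPM. The gap junction protein Gja1 (connexin 43) stood at 61.6, 62.6 and 60.4 CPM at day 0 and at 13, 17.1 and 14.1 CPM at day 7, and all 3 connexin or pannexin genes that passed, of 5 tested, were lower.

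Enzyme families of acid, aldehyde and steroid metabolism leaned to higher levels. Carbonic anhydrases, which turn carbon dioxide into bicarbonate, had 6 higher and none lower of 10. Car2 (chr3:14886269-14900770) stood at 0.196, 0.201 and 0.119 CPM at day 0 and at 25, 24 and 23.6 CPM at day 7, a log2 fold change of 7.09 (SE 0.29, adjusted p = 2.23e-09, edgeR). Car5b, the mitochondrial form, rose from 35.1 ± 0.772 to 348 ± 37.7 CPM (SD, n = 3), and Car3 by 4.84 (SE 0.48). Aldehyde and alcohol dehydrogenases had 13 higher and 4 lower of 20, with 2 lower when library 2 or 3 of day 0 or library 1 or 2 of day 7 was left out. Aldh1a7 stood at 1.14, 1.33 and 1.59 CPM at day 0 and at 96.7, 90.0 and 109 CPM at day 7 and its neighbour Aldh1a1 rose from 1.16 ± 0.256 to 21.8 ± 2.50 CPM; both are near-identical copies on chromosome 19 and their separate values are uncertain. Adh1 rose by 2.75 (SE 0.17) and Rdh10, which makes retinaldehyde from retinol, fell from 41 ± 2.94 to 9.67 ± 1.24 CPM. Hsd11b1, which activates glucocorticoids inside cells, stood at 3.93, 3.42 and 4.01 CPM at day 0 and at 37.9, 31.6 and 50.2 CPM at day 7, a log2 fold change of 3.40 (SE 0.40, adjusted p = 2.09e-05, edgeR). Rgs2, a regulator of G protein signalling, rose from 48.3 ± 1.17 to 256 ± 9.03 CPM, while 13 of 26 G protein subunits were lower and 3 higher. With 1 control library left out 10 or 11 of these subunits were lower.

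Outside the families, the largest falls by the naming rule included Atp1b1, a subunit of the sodium pump, which stood at 328, 339 and 338 CPM at day 0 and at 19.2, 19.2 and 19.3 CPM at day 7, a log2 fold change of −4.12 (SE 0.13, adjusted p = 3.23e-10, edgeR). Hic1, a repressor of mesenchymal precursors, fell from 50.3 ± 4.04 to 3.42 ± 0.456 CPM (SD, n = 3), Plau, the urokinase protease, from 11 ± 0.408 to 0.858 ± 0.320 CPM, and Clec3b (tetranectin) from 64.5 ± 12.7 to 4.60 ± 0.784 CPM. Steap4, an iron and copper reductase of fat cells, stood at 0.550, 0.322 and 0.476 CPM at day 0 and at 142, 123 and 132 CPM at day 7, a log2 fold change of 8.18 (SE 0.46, adjusted p = 2.8e-08, edgeR). Kdm1a, which encodes LSD1, stood at 79, 86.3 and 84.1 CPM at day 0 and at 66.1, 67.6 and 74.5 CPM at day 7. Its difference of −0.26 (SE 0.10, adjusted p = 0.0392, edgeR) no longer passed in 5 of the 6 fits that left out 1 control library, where the adjusted p was 0.0502 to 0.133 in edgeR.

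Some neighbouring genes moved together. Runs of at least 4 adjacent tested genes, each changed by at least 2-fold in 1 direction, included 9 genes on chromosome 1 that start with Aim2 and include Ifi200 genes, the 9 Serpina3 genes on chromosome 12, the flavin monooxygenases Fmo1 to Fmo4, and Gbp7, Gbp3, Gbp2b and Gbp2 with Kyat3 on chromosome 3. Ifi204, an interferon-inducible DNA sensor, stood at 25.7, 30.6 and 26.4 CPM at day 0 and at 258, 269 and 279 CPM at day 7. Tap1, a gene of antigen presentation, rose by 1.19 (SE 0.27) in a run with Psmb9, Psmb8 and Tap2. The Ifi200, Gbp and Fmo genes resemble one another, and the part of shared reads in these runs was not tested. A run in the other direction held the imprinted genes Dlk1, Rtl1 and Mirg on chromosome 12 with Begain. Rtl1 was at −1.67 (SE 0.50) and Mirg at −3.14 (SE 0.84). Rtl1 did not pass without library 1 or library 2 of day 7 (adjusted p = 0.0554 and 0.0544, edgeR). Another run, Hsd11b1, G0s2, Lamb3 and Camk1g on chromosome 1, held 4 higher genes of unrelated kinds, with G0s2, an inhibitor of lipolysis, rising from 0.685 ± 0.390 to 151 ± 11.8 CPM (SD, n = 3). In this run Lamb3 did not pass in 5 and Camk1g in 3 of the 6 fits that left out 1 control library (adjusted p up to 0.122 and 0.0859, edgeR).

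Of 503 tested long non-coding RNAs 120 (23.9%) passed as higher, against 23.7% of all tested genes, and 65 (12.9%) as lower, against 24.6%. Their median was 0.22. Malat1 stood at 754, 238 and 321 CPM at day 0 and at 1422, 1279.9 and 1597 CPM at day 7, and Neat1, the scaffold of paraspeckles, stood at 255, 98.1 and 139 CPM at day 0 and at 589, 536 and 689 CPM at day 7. Library 1 of day 0 was the highest of its group for both, and neither overlapped between days. Malat1 was at 1.71 (SE 0.40), and at 2.36 without that library. It did not pass in the 6 control libraries alone with a replicate block (1.93, adjusted p = 0.0511, edgeR). Gas5, a host of small nucleolar RNAs, rose by 1.08 (SE 0.24).

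LSD1 and Nrf1 peaks were set beside the genes to see whether those that moved carried them. Each list comes from 1 ChIP-seq sample, so the shares have no replicate error. All shares of peaks are over genes with a promoter window, and tested genes without one were left out. These were 1108 genes that rose and 811 that fell by at least 2-fold, of 10365 tested genes with a window. Within 1 kb of a start site, an LSD1 peak of the control day 0 list (3024 peaks) stood at 15.1% of genes that rose and 15.9% of genes that fell by at least 2-fold, against 23.8% of all tested genes. In the control day 7 list (8303 peaks) the shares were 44.3%, 38.6% and 61.3%, and for Nrf1 at day 0 (2078 peaks) 7.40%, 5.67% and 12.7%. In each of the 3 lists the share was lower among genes with large changes, a difference given without a test. Among all genes that passed, with no fold threshold, the shares of higher and lower genes lay near those of all tested genes. They were 22.1% and 26.6% for LSD1 at day 0, 60.8% and 62.5% for LSD1 at day 7, and 12.0% and 13.3% for Nrf1. The share also went with expression level. In the lowest quartile of mean level 9.54% of higher and 6.40% of lower genes had an LSD1 peak at day 0, and in the highest quartile 33.5% and 37.0%, and the part of level in the lower shares was not tested. Acsl1, an acyl-CoA synthetase that rose by 5.51 (SE 0.17), and Cav1 had a peak in both LSD1 lists, while Plin1 and Acta2 had none within 1 kb in either.

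The same days in cells with the LSD1 label gave a separate set of 6 libraries that shares no sample with the control comparison. In these, Kdm1a stood at a mean of 97.5 CPM at day 0 and 54.7 at day 7, against 83.1 and 69.4 in control, so the label is used as a name for the libraries. Among all tested genes 32.6% passed as higher and 37.2% as lower under the label. Of the 1448 genes that rose by at least 2-fold in control, 945 (65.3%) passed as higher under the label too, 232 passed as lower and 271 did not pass. Of the 1124 that fell, 943 (83.9%) passed as lower, 41 as higher and 140 did not pass. By role, secreted factors had the smallest share of risers that also rose, 27 of 52 (51.9%), with 17 passing as lower, whereas 95 of 103 secreted factors that fell also fell (92.2%). Epha4 was at −3.03 in control and −9.09 under the label (adjusted p of the difference = 0.000116, edgeR), and Sfrp2 at −2.12 and −10.07 (adjusted p = 2.66e-06, edgeR). Under the label Epha4 stood at a mean of only 0.0184 CPM at day 7, so the size of its fall there is uncertain. The difference between labels passed for 6933 of 13356 genes (51.9%). Of the 216 genes chosen by the naming rule it did not pass for 65, it passed for 132 and it passed with opposite directions for another 19.

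**Figure D5:**
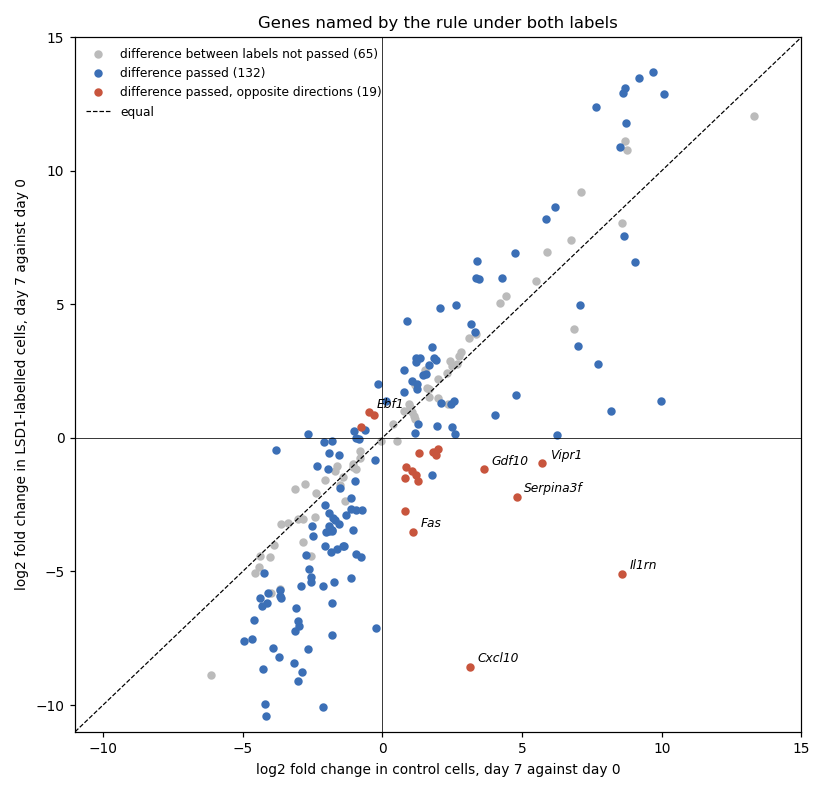
Log2 fold change of day 7 against day 0 in control cells (horizontal axis) and in LSD1-labelled cells (vertical axis) for the 216 genes named by the rule; the dashed line marks equal values. Red points, 19 genes, passed in opposite directions, with Il1rn at 8.57 and −5.10 and Cxcl10 at 3.15 and −8.57.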

How the data were processed

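RNA-seq was made from total RNA of 12 libraries, 3 in each of 4 groups. The authors deposited raw read counts per RefSeq transcript for 30521 transcripts. Per the submitters' processing notes, TopHat2, HOMER, edgeR, DESeq 1.8.3 and the build mm10 were used for the series. The strand setting of the counting is not given in the sources used here, so overlapping and antisense genes cannot be told apart. The peak lists carry the score that the authors deposited with each peak (lowest score 50), and per the submitters' processing notes Bowtie2 and MACS 1.41 served the ChIP-seq.

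Accessions were named from RefSeq (29144) and GENCODE (177) tables. The 1200 unnamed ones held 0.896% of counts and were kept as separate entries. The 24346 genes in the tables include them, and the 13356 tested genes include those with enough counts. Where a gene had several transcripts, the one with the most counts on average stood for it. Genes passing edgeR's low-count filter were fitted over all 12 libraries with TMM scaling and the quasi-likelihood test (edgeR 4.0.16, limma 3.58.1, R 4.3.3), with Benjamini-Hochberg adjustment over all 13356 genes and a threshold of 0.05. The fit was tested on simulated data. Alternatives were DESeq2 1.42.0, other scaling, no filter, summed transcripts, removal of a GC trend, the control libraries alone, a replicate block, and each control library left out.

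The labels call replicates biological but do not say that they were separate cultures, so p-values measure the spread between these samples. Over both days, libraries with the same number showed no clear shared deviation, which does not settle whether they were paired. Counting intervals and floors (3 counts over the group, 95% intervals) cover counting error only.

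Genes were named by a rule: per role the 8 largest rises and falls, per family with at least 5 tested members the largest of each, the 10 largest of each outside the families, all with a mean of at least 5 CPM and no overlap between days, and 21 genes always. Other members of counted families and runs were named after their values were seen. Families, lists and members were chosen with earlier results of these data known. The Nrf1 list of day 7 and the peak lists of LSD1-labelled cells were not analysed here, and a few genes and a family are not reported here.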

Additional observations from a re-analysis of the deposited data

Results flagged for a closer look

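The day effect differed between control and LSD1-labelled cells for 6933 genes by the interaction term in edgeR. Among the genes named by the rule, 19 passed in opposite directions, and the values that follow are log2 differences of the day effects, control minus labelled. The difference was −1.44 for Ebf1, −1.18 for Ehd1 and −1.16 for Stat6, which fell in control and rose under the label. The others rose in control and fell under the label. Among signalling and transcription genes the difference was 2.30 for Klf5, 2.33 for Hoxd3, 2.39 for Gng2 and 3.54 for Smad9. For receptors and their antagonists it was 1.94 for Plxnd1, 2.57 for Fgfr2, 2.91 for Ptgfr, 4.62 for Fas, 6.68 for Vipr1 and 13.66 for Il1rn. For secreted and structural genes it was 2.34 for Sparcl1, 2.61 for Lmod1, 4.81 for Gdf10, 7.03 for Serpina3f and 11.71 for Cxcl10. The day 0 level under the label differed as well: Il1rn stood at a mean of 11.7 CPM against 0.20 in control, and Cxcl10 at 28.8 against 1.12. At day 7 Cxcl10 stood at a mean of only 0.0712 CPM under the label, so the size of its difference is uncertain. The control day effect of Stat6 no longer passed in 5 and that of Hoxd3 in 4 of the 6 fits that left out 1 control library (adjusted p up to 0.107 and 0.0893, edgeR), and Ebf1 and Klf5 lost theirs as given above.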

How the results depend on the processing

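The counts of genes that passed stayed within 1.5 times of 3168 higher, 3279 lower and 6933 different between labels under all settings run. With the control libraries alone they were 4442 higher and 4150 lower, with DESeq2 3245 and 3563, with RLE scaling 3082 and 3393, with no low-count filter 3143 and 3099, and with a GC trend removed 3071 and 3232. With 1 control library left out they ranged from 2540 to 2713 higher, from 2703 to 2831 lower and from 6304 to 6541 different between labels. A replicate block gave 2957 higher, 3074 lower and 6541 different. Same-numbered libraries of both days correlated in their deviations at 0.0762, 0.00409 and −0.0456, against −0.0938 to 0.0800 for libraries with different numbers. With 3 libraries per day these values cannot show whether the numbers pair them. The block with the control libraries alone, chosen after seeing the data, gave 4460 and 4175. Wnt10b, at −0.24 and not passed, changed sign with the GC trend removed (0.0602), without control day 0 replicate 1 (0.27) and without control day 7 replicate 2 (0.24); over the control libraries left out in turn it ranged from −1.09 to 0.27, and the cause was not tested. Kdm1a no longer passed with the replicate block (adjusted p = 0.0567, edgeR) or the GC trend removed (adjusted p = 0.103, edgeR). For peaks of a score of at least 100, an LSD1 peak at day 7 stood at 30.2% of genes that rose and 25.5% of genes that fell by at least 2-fold. The share was 42.6% of all tested genes, each share over genes with a promoter window. Low counts limit genes near 0 at day 0, whose fold changes move with single libraries.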
